A study of Mus musculus with 15 samples.

Results

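Cdkn1a, the mouse gene for the cyclin-dependent kinase inhibitor p21, was followed on the 3 array probes that the probe table maps to it, out of 45281 probes and 19057 named genes on the array. The 3 probes are ILMN_2634083, ILMN_2846775 and ILMN_2846776, and each was detected on at least 3 of the 15 arrays. The gene was chosen by its signal in these data, which moved in opposite directions after acute and after chronic T3, so its treatment differences are given below as a description, without a test. On the gene's brightest probe, after background correction, the mean was 4.21-fold lower after acute T3 than in its baseline and at least 5.05-fold higher after chronic T3 than in the other baseline. Without background correction the same means differed 2.21-fold and 3.75-fold. After T3 withdrawal the signal was not above background on any of the 3 arrays.

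The arrays measured RNA from liver of male C57BL/6 mice labelled as 8 weeks old. Thyroid hormone was given as intraperitoneal L-T3 (liothyronine) at 20 µg per 100 g body weight. Acute T3 livers were taken 6 h after 1 injection, and chronic T3 livers 6 h after the last of 14 daily injections. T3 withdrawal livers came from mice left untreated for 10 days after 14 injections. The animals were handled in 2 subsets, each with its own baseline mice, for which the labels give no T3 dose. Baseline A belongs to the acute subset. Baseline B belongs to the subset that was treated for 14 days. Each of the 5 groups had 3 arrays. Nothing in the labels ties an array to an animal of its own, so errors and p-values measure the spread between these samples, which may be technical. Arrays are numbered within a group by the replicate numbers of the labels. Time of day at killing is not given in the sources used here.

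p21 binds complexes of cyclins with cyclin-dependent kinases and, through another part of the protein, the replication clamp PCNA, and so slows entry into DNA replication. Its gene is a classical target of the tumour suppressor p53, and its transcription also responds to stress, glucocorticoid, clock and growth factor pathways. In liver, p21 is best known for restraining hepatocytes after partial hepatectomy and in chronic injury. T3 acts through nuclear thyroid hormone receptors and is a known mitogen for rodent hepatocytes.

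Cdkn1a (gene ID 12575) lies on mouse chromosome 17 from 29090979 to 29100722 on the plus strand of build GRCm38.p6, and RefSeq lists 2 starts for it. The 250 bases before each start are shown with the sites that a search marked in them, and other control sites of the gene may lie outside these windows. They are RefSeq sequence, 5′ to 3′. Capitals mark a p53 response element and TATAA letters in the first, and GC boxes (GGGCGG, the letters bound by Sp1 family factors) and TATAA in the second.

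Cdkn1a promoter 1, chr17:29090729-29090978: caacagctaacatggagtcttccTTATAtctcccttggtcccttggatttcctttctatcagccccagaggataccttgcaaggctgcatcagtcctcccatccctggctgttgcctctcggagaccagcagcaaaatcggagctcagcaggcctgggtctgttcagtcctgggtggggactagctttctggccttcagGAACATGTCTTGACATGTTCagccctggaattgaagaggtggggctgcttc

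Cdkn1a promoter 2, chr17:29093519-29093768: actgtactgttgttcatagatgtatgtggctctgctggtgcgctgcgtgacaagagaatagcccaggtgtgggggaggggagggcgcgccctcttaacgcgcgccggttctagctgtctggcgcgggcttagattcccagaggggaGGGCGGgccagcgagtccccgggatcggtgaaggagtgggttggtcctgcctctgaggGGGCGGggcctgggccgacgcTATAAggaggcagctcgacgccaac

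The first start has the p53 element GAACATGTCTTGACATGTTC at chr17:29090928-29090947, beginning at position -51 from the start. It was found by a search on both strands for a pair of adjoining p53 binding motifs with at most 1 letter off outside the core, a rule that was relaxed after this promoter was seen. By that rule 19 of 32851 promoters of mouse genes in the same table, 0.0578%, hold such an element. The second start has GC boxes beginning at positions -104 and -46, and 32.7% of all promoters hold at least 1. TATAA was found on the plus strand at position -25 of promoter 2 and on the minus strand at position -227 of promoter 1, and 22.8% of promoters hold it on either strand. Neither window holds the clock and Myc E-box CACGTG, present in 6.02% of promoters, or the nuclear receptor half-site AGGTCA, present in 14.0%. The matches describe letters in these windows only, and the probes do not tell which start was used in these livers.

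The deposited signals show the pattern before any normalisation. On ILMN_2846775, the brightest of the 3 probes over all arrays, the baseline A signals were 371, 295 and 444 (arbitrary units). The acute T3 signals were 156, 146 and 132, so that each lay below every baseline A array. The chronic T3 signals were 725, 351 and 356 against 127, 136 and 146 in baseline B. All chronic T3 arrays were above all baseline B arrays, and array 1 of chronic T3 was the brightest of the 15. The T3 withdrawal signals were 143, 118 and 142, which overlap those of baseline B.

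**Figure D1:**
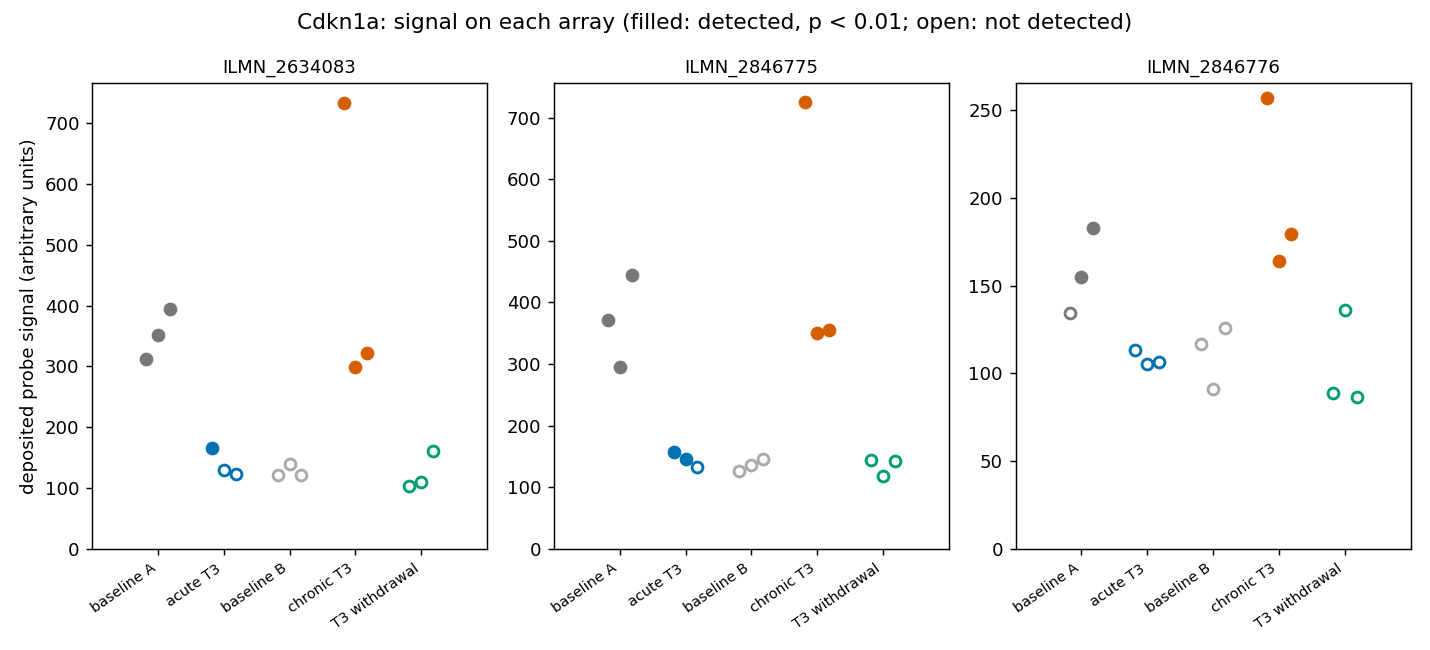
Deposited signal of the 3 Cdkn1a probes (arbitrary units, linear axis from 0) on each of the 15 arrays, by group; filled circles are arrays on which the probe was detected at a detection p under 0.01, open circles those on which it was not. Chronic T3 arrays run from 351 to 725 on ILMN_2846775 and baseline A arrays from 295 to 444, while baseline B and T3 withdrawal arrays are all open circles.

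A probe was called detected where its detection p, the share of negative control probes that are brighter, was under 0.01. ILMN_2846775 was detected on 3 of 3 arrays of baseline A and of chronic T3, on 2 of 3 of acute T3, and on 0 of 3 of baseline B and of T3 withdrawal. ILMN_2634083 gave the same calls except for acute T3, where 1 of 3 arrays was detected. The dimmest probe, ILMN_2846776, was detected on 2 of 3 baseline A and on 3 of 3 chronic T3 arrays and on 0 of the other 9 arrays. At a looser detection p of 0.05, ILMN_2846775 was detected on all 3 acute T3 arrays and on 1 of 3 arrays each of baseline B and T3 withdrawal. Cdkn1a in baseline B and after withdrawal was thus not well above background on these arrays, which does not show that the transcript was absent.

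After background correction, quantile normalisation and log2 transformation the 3 probes moved together, with Pearson's r over the 15 arrays of 0.976, 0.888 and 0.905 for the 3 pairs. These probes read the same RNA on the same arrays, and the r is a description. On ILMN_2846775 the level was 8.79 ± 0.18 (log2, SD, n = 3) after chronic T3, 8.05 ± 0.47 in baseline A, 5.98 ± 0.11 after acute T3, 5.41 ± 0.35 after withdrawal and 5.40 ± 0.12 in baseline B. In that order, the lowest chronic T3 array (8.66) was above the highest baseline A array (8.56), and the lowest baseline A array (7.63) was well above the highest acute T3 array (6.06). The acute T3 arrays, from 5.85 to 6.06, were above all baseline B arrays, from 5.30 to 5.53, and above all withdrawal arrays, from 5.04 to 5.74. Baseline B and withdrawal overlapped. On the other probes the acute T3 arrays overlapped those of baseline B and of withdrawal, so the acute T3 arrays stood apart from both on the brightest probe only.

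**Figure D2:**
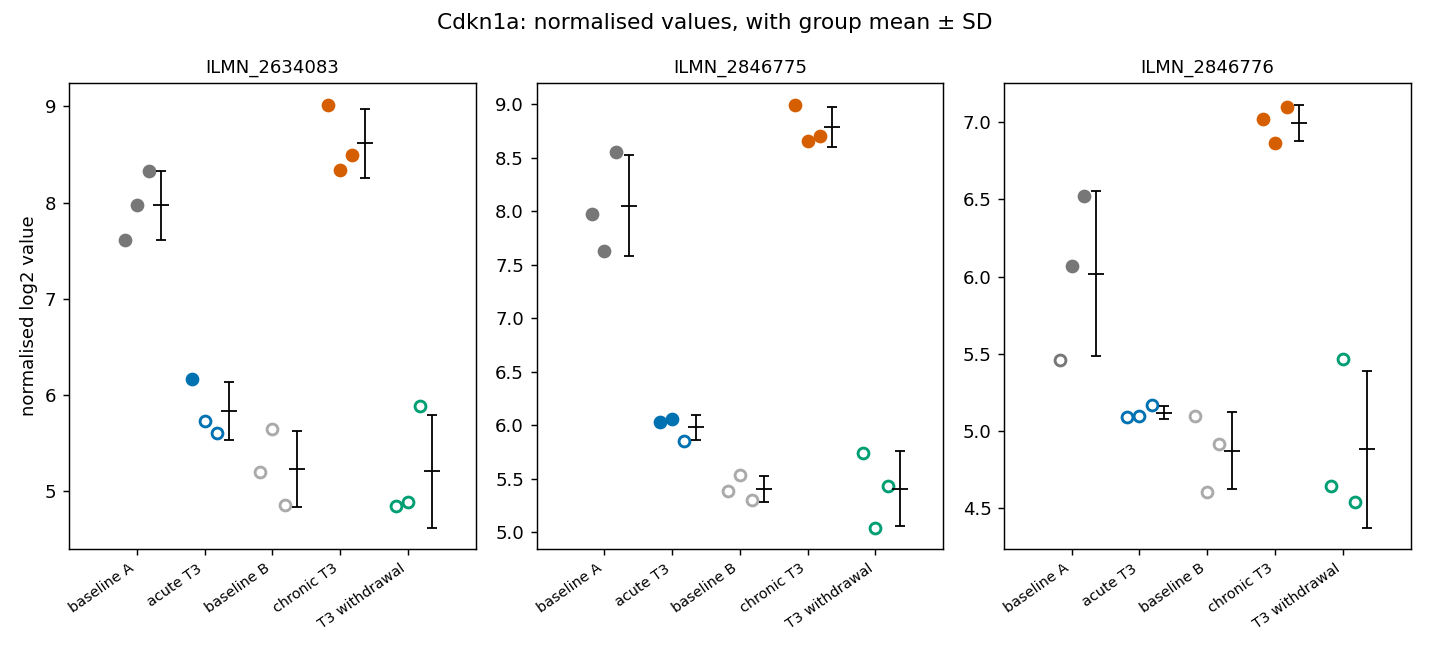
Normalised log2 values of the 3 Cdkn1a probes on each array (circles, filled where detected) with the mean and SD of the 3 arrays of a group (black bars); the axes differ between probes and do not start at 0. Chronic T3 and baseline A are the high groups on all 3 probes, at 8.79 and 8.05 on ILMN_2846775.

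The acute comparison sets livers taken 6 h after 1 T3 injection against baseline A, for which the labels give no injection. Cdkn1a was lower after acute T3 by a log2 difference of -2.07 ± 0.22 (SE, n = 3 against 3), a 4.21-fold lower mean, on ILMN_2846775, where 2 of 3 acute T3 arrays were above background. ILMN_2634083, with 1 of 3 acute T3 arrays above background, gave -2.14 ± 0.31. These values depend on the background correction: without it the difference on ILMN_2846775 was -1.145 (2.21-fold), and in the authors' quantile-normalised table -1.155 (2.23-fold). ILMN_2846776 gave -0.90 ± 0.27, at least 1.13-fold lower, since none of its acute T3 arrays was above background. A fold written as "at least" sets the bright group's mean against the lowest detected signal of each array of the dim group, or the probe's own value if higher. On all 3 probes every acute T3 array was below every baseline A array. Over all 8976 genes tested with limma, 1.47% were called higher and 0.646% lower in this comparison at a Benjamini-Hochberg adjusted p under 0.05, and nothing is read from Cdkn1a's place among them because the comparison chose it.

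The chronic comparison sets livers after 14 days of T3 against baseline B, for which the labels give no injection either. Cdkn1a was higher after chronic T3 than in baseline B by 3.38 ± 0.22 (log2 difference, SE) on ILMN_2846775, at least 5.05-fold. Without background correction it was 1.907 (3.75-fold), and the authors' table gave 1.922 (3.79-fold), both under that bound, which holds for the corrected values only. The difference was 3.38 ± 0.31 on ILMN_2634083, at least 4.48-fold, and 2.13 ± 0.27 on ILMN_2846776, at least 1.46-fold. In this comparison 12.4% of the genes tested were called higher and 10.5% lower. The 2 dimmest arrays of the series, with mean signals of 438 and 435 against up to 697, are arrays 2 and 3 of chronic T3, and both still detected all 3 Cdkn1a probes. Without them the difference was 3.64 on the remaining chronic T3 array.

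Both treatment groups can also be set against each other. The chronic effect exceeded the acute effect by 5.46 ± 0.31 on the log2 scale on ILMN_2846775, by 5.52 ± 0.43 on ILMN_2634083 and by 3.02 ± 0.38 on ILMN_2846776. Arithmetically this is the difference between the treated groups less that between the baselines. Cdkn1a was lower in baseline B than in baseline A by a log2 difference of -2.65 ± 0.22, at least 3.03-fold, with no overlap between the arrays, and by -1.359 (2.57-fold) without background correction. On the other probes the baselines differed by -2.74 ± 0.31 and -1.15 ± 0.27. Chronic T3 was 0.73 ± 0.22 above baseline A, a 1.66-fold higher mean, and acute T3 was 0.58 ± 0.22 above baseline B with no fold because the bound is under 1. Chronic T3 was 2.81 ± 0.22 above acute T3, a difference that crosses the 2 subsets and rests on 2 of 3 acute T3 arrays above background. Subset and treatment cannot be told apart in comparisons across the subsets. Between the baselines 2.73% of genes were called higher in baseline B and 5.98% lower.

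The withdrawal comparison asks whether the liver returned to its baseline 10 days after the last injection, and this is the contrast that the choice of the gene did not use, although baseline B itself entered that choice. Cdkn1a after withdrawal differed from baseline B by 0.002 ± 0.22 (log2), with a 95% interval from -0.47 to 0.48, which limma did not call (adjusted p = 0.998, n = 3 against 3). Neither group was above background, so the values are bounded by background and no fold is given. For the same reason this test could hardly have called a difference, and it does not show a return to the baseline level. Against chronic T3, Cdkn1a after withdrawal was lower by a log2 difference of -3.38 ± 0.22, at least 6.32-fold, and no array overlapped; without background correction it was -1.913 (3.77-fold). The other probes gave -3.41 ± 0.31 and -2.12 ± 0.27. Of all genes, 8.82% were called higher and 8.31% lower after withdrawal than after chronic T3. Against baseline B, 0.0111% (1 gene) were called higher and 0% lower, with 662 genes at an unadjusted p under 0.05.

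The labelled tissue and its other cell types bear on a level read from whole liver, where fewer cells of a type and less RNA per cell cannot be told apart. All 10 hepatocyte markers listed were measured, with a mean log2 level per array from 11.9 to 12.5 over all groups, and 0 rose and 1 fell after acute T3 and 0 rose and 2 fell after chronic T3. In the acute comparison 1.47% of all genes tested were called higher and 0.646% lower, and in the chronic comparison 12.4% and 10.5%. All 11 measured macrophage and Kupffer cell markers rose after chronic T3, as the Kupffer cell folate receptor Folr2 did (log2 difference 2.26 ± 0.20, adjusted p = 8.7e-06). All 11 were lower again after withdrawal than after chronic T3, beside 8.31% of all genes. Their mean level ran from 9.90 to 10.8 on chronic T3 arrays and from 8.45 to 8.95 on baseline B arrays, so it moved with Cdkn1a in that comparison. In the acute comparison 0 of the 11 passed, and their mean level ran from 8.31 to 8.81 after acute T3 and from 8.50 to 9.03 in baseline A. Between the baselines 0 passed as well, beside 2.73% of all genes called higher in baseline B and 5.98% lower. Of the other lists, 4 of 10 endothelial markers rose after chronic T3 and 0 of 9 stellate cell markers passed in either treatment comparison. Only 1 of 9 T and NK cell markers, 1 of 5 B cell markers, 2 of 8 neutrophil markers and 1 of 7 cholangiocyte markers were measured at all, and 0 of these passed after acute or chronic T3. Of 3 measured erythroid markers, 1 fell after chronic T3. The part of cell composition in the Cdkn1a differences was not tested.

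Few relatives of Cdkn1a were measured. Of 8 listed inhibitors and related genes, 5 were measured including Cdkn1a. The Cip/Kip gene Cdkn1b (p27), for which 3 probes exist, was detected on 0 of 15 arrays, as was the INK4 gene Cdkn2b (p15). Cdkn2a (p16 and p19Arf) was detected on 1 array, of T3 withdrawal. After acute T3 none of the 4 measured relatives passed, beside 1.47% of all genes called higher and 0.646% lower. Cdkn1c (p57) differed by -0.64 (adjusted p = 0.158), Cdkn2c (p18) by 0.57 (0.132), Cdkn2d (p19) by 0.82 (0.187) and Cdkn3 by -0.71 (0.437).

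After chronic T3, 2 of the 4 relatives rose and 1 fell, beside 12.4% and 10.5% of all genes. Cdkn3, a phosphatase that removes an activating phosphate from cyclin-dependent kinases, rose by 1.93 ± 0.39 (adjusted p = 0.00415), at least 1.70-fold, from 0 of 3 to 3 of 3 arrays detected. Cdkn2c, an inhibitor of CDK4 and CDK6, rose by 0.64 ± 0.18 (adjusted p = 0.02), and Cdkn1c fell by 0.73 ± 0.21 on the log2 scale (adjusted p = 0.0253). Cdkn2d differed by -0.04 (adjusted p = 0.941). Like Cdkn1a, Cdkn3 lay below its baseline after acute T3 and above it after chronic T3, though only the latter difference passed, and its chronic effect exceeded its acute effect by 2.64 ± 0.56 (adjusted p = 0.0148). Cdkn2c differed from Cdkn1a between the baselines too, being 0.72 ± 0.18 higher in baseline B (adjusted p = 0.0273). The chronic call of Cdkn2c ended without array 3 of chronic T3 or array 1 of baseline B (adjusted p 0.0633 to 0.0709), that of Cdkn1c without array 2 or 3 of chronic T3 or array 1 or 3 of baseline B (0.0569 to 0.0861), and the baseline call of Cdkn2c without array 1 or 3 of baseline A or array 2 or 3 of baseline B (0.0757 to 0.107). Median scaling ended the chronic calls of Cdkn1c (adjusted p = 0.26) and Cdkn2c (0.0971) and the baseline call of Cdkn2c (0.371). Without the 2 dimmest arrays of the series, arrays 2 and 3 of chronic T3, the chronic calls of Cdkn1c (0.379) and Cdkn2c (0.102) ended as well.

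Genes of the proteins that p21 binds, the cyclins, their kinases and PCNA, were measured for 8 of 12. After acute T3 0 of the 8 passed, beside 1.47% of all genes called higher and 0.646% lower. After chronic T3, 3 of 8 rose and 0 fell, beside 12.4% and 10.5% of all genes. The median log2 difference was 0.24 beside 0.03 over all genes. The detection filter keeps a gene detected on the 3 chronic T3 arrays alone, which favours such rises in genes near background. Cyclin D1 (Ccnd1), which drives CDK4 and CDK6 in early G1 and is held by p21 in their complexes, rose by 2.42 ± 0.41 (adjusted p = 0.0013), from 10.5 to 12.9 on the log2 scale. Cyclin E1 (Ccne1), the partner of CDK2, rose by 1.10 ± 0.25 (adjusted p = 0.00804), at least 1.30-fold. The mitotic kinase Cdk1 rose by 1.49 ± 0.43 (adjusted p = 0.0263), at least 1.48-fold, a call that ended without array 1 of chronic T3 or array 2 or 3 of baseline B (adjusted p 0.0555 to 0.0883) and under median scaling (0.0722). After acute T3 Ccnd1 differed by 0.01 (adjusted p = 0.992).

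Genes that E2F factors and the DREAM complex control, and that are repressed when p21 is active, were measured for 14 of 24 listed. After chronic T3, when Cdkn1a was high, 8 rose and 0 fell, beside 12.4% and 10.5% of all genes. The median difference was 1.24, beside 0.025 over all genes. The detection filter keeps a gene detected on the 3 chronic T3 arrays alone, which favours rises there in genes near background. The mean level of the list on baseline B arrays ran from 6.81 to 6.92, near the lowest detected values of those arrays (6.23 to 6.87). Among the 8, the replicative helicase subunits Mcm5 and Mcm6 rose by 2.39 ± 0.32 (adjusted p = 0.000234) and 1.38 ± 0.25 (adjusted p = 0.0021). The ribonucleotide reductase subunit Rrm2 rose by 1.66 ± 0.30 (adjusted p = 0.00186). The count of 8 dropped to 5 without array 1 of chronic T3 or without array 3 of baseline B. After acute T3, when Cdkn1a was low, 1 of 14 rose and 0 fell, beside 1.47% and 0.646% of all genes. The median was -0.39, with 12 of 14 differences below 0. The 1 that rose was Rrm2 (1.58 ± 0.30, adjusted p = 0.0169, at least 1.88-fold), and its call ended without array 1 or 2 of baseline A or array 1 or 3 of acute T3 (adjusted p 0.0581 to 0.0847). Mcm5 differed by -0.79 (adjusted p = 0.252) and Mcm6 by -0.92 (adjusted p = 0.0802). The chronic effect exceeded the acute effect for Mcm5 by 3.18 ± 0.45 (adjusted p = 0.00157) and for Mcm6 by 2.30 ± 0.36 (adjusted p = 0.00292).

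Of the pocket proteins, E2F factors and DREAM subunits themselves, 10 of 19 were measured. None passed after acute T3, and after chronic T3 the repressor E2f6 rose by 0.35 ± 0.11 (adjusted p = 0.0296) and E2f5 fell by 0.42 ± 0.14 on the log2 scale (adjusted p = 0.0458). Over all genes, 1.47% were called higher and 0.646% lower after acute T3, and 12.4% and 10.5% after chronic T3. The E2f6 call ended without array 1 of chronic T3 or array 1 or 2 of baseline B (adjusted p 0.0676 to 0.0965). The E2f5 call ended in 12 of the 15 fits that each left out 1 array, all except those without array 3 of baseline A, array 2 of acute T3 or array 1 of baseline B (adjusted p 0.0507 to 0.181 in the 12). Median scaling ended both calls (0.452 for E2f6 and 0.446 for E2f5), and leaving out the 2 dimmest arrays ended that of E2f5 (0.235).

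**Figure D3:**
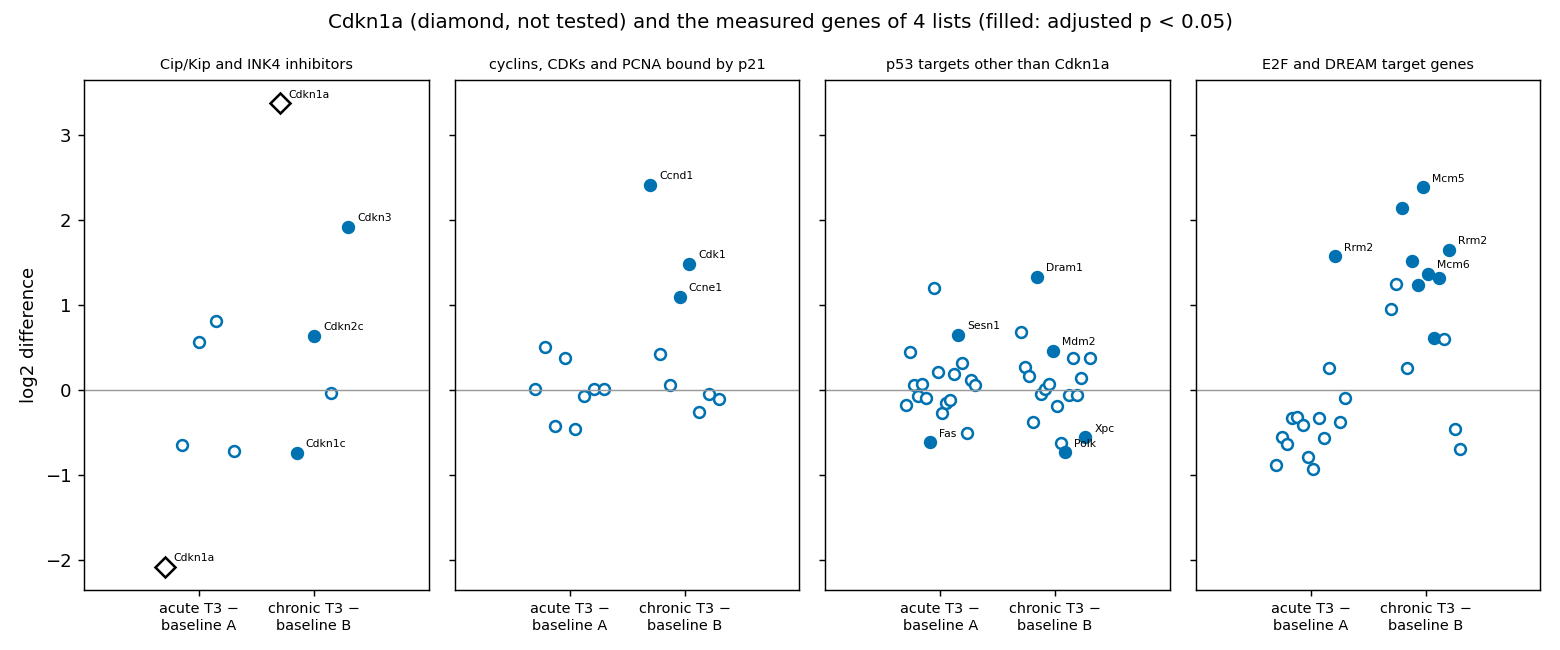
Log2 differences of Cdkn1a (diamond, described and not tested) and of the measured members of 4 gene lists in the acute and chronic comparisons; each circle is 1 gene, filled where limma's adjusted p was under 0.05 (some filled circles of the last panel are unlabelled). Cdkn1a lies at -2.07 and 3.38, the p53 targets spread around 0 in both comparisons, and 8 of 14 E2F and DREAM targets are filled and above 0 after chronic T3.

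Of p53 and its regulators 7 of 10 genes were measured. The p53 gene itself, Trp53, was not measured, since no probe on the array was assigned to it. After acute T3, 1 of 7 fell and 0 rose, beside 0.646% and 1.47% of all genes. Trp53bp1, whose product binds p53 and DNA breaks, fell by 0.90 ± 0.17 on the log2 scale (adjusted p = 0.0149). Its call ended without array 1 of baseline A or array 1 or 3 of acute T3 (adjusted p 0.0593 to 0.0629). The others, Mdm2, Mdm4, Atm, Chek2, Usp7 and Ppm1d, differed by -0.15 to 0.42 (adjusted p 0.514 to 0.958). After chronic T3, 1 of 7 rose and 1 fell, beside 12.4% and 10.5% of all genes. Mdm2, the ubiquitin ligase for p53 and itself a p53 target, rose by 0.47 ± 0.14 (adjusted p = 0.0329), and the DNA damage kinase Atm fell by 0.41 ± 0.12 on the log2 scale (adjusted p = 0.0224). The remaining genes, Mdm4, Chek2, Usp7, Trp53bp1 and Ppm1d, differed by -0.39 to 0.41 (adjusted p 0.112 to 0.756). The Mdm2 call ended without array 1 or 2 of chronic T3 or array 1 or 2 of baseline B (adjusted p 0.0808 to 0.0991) and that of Atm without array 3 of chronic T3 or array 1 or 3 of baseline B (0.057 to 0.0785). With arrays scaled to a common median these calls ended too, for Mdm2 at an adjusted p of 0.303, Atm at 0.32 and Trp53bp1 at 0.0886. Those of Mdm2 (0.0984) and Atm (0.209) also ended without the 2 dimmest arrays.

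Of 28 other p53 targets listed, 18 were measured. After acute T3, 1 rose and 1 fell with a median of 0.06, and after chronic T3, 2 rose and 2 fell with a median of 0.05. Over all genes, 1.47% were called higher and 0.646% lower after acute T3. After chronic T3 the shares over all genes were 12.4% and 10.5%, near those of this list. The stress sensor Sesn1 rose by 0.66 ± 0.14 after acute T3 (adjusted p = 0.0337) and the death receptor Fas fell by 0.61 ± 0.12 on the log2 scale (adjusted p = 0.0188). Each of these 2 calls ended without array 1 or 2 of baseline A or any 1 array of acute T3 (adjusted p 0.0832 to 0.159 for Sesn1 and 0.0554 to 0.09 for Fas). After chronic T3 the autophagy gene Dram1 rose by 1.34 ± 0.39 (adjusted p = 0.0267), at least 1.37-fold, beside Mdm2. The DNA repair genes Xpc and Polk fell by 0.55 ± 0.14 (adjusted p = 0.0139) and 0.72 ± 0.21 (adjusted p = 0.024) on the log2 scale. The Dram1 call ended without array 1 or 2 of chronic T3 or array 2 or 3 of baseline B (adjusted p 0.0835 to 0.109), that of Polk without array 2 or 3 of chronic T3 or array 2 or 3 of baseline B (0.0578 to 0.0893) and that of Xpc without array 3 of baseline B (0.0576). Median scaling ended the calls of Sesn1 (adjusted p = 0.121), Fas (0.582), Xpc (0.281) and Polk (0.313). Without the 2 dimmest arrays the calls of Xpc (-0.381, adjusted p = 0.23) and Polk (-0.368, adjusted p = 0.411) ended too. Between the baselines 0 of the 18 passed, beside 2.73% of all genes called higher and 5.98% lower.

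Factors known to act at the Cdkn1a promoter were measured for 16 of 29. After acute T3, 3 rose and 0 fell, beside 1.47% and 0.646% of all genes, and after chronic T3, 3 rose and 4 fell, beside 12.4% and 10.5%. Stat5a, a growth hormone effector, rose in both, by 1.37 ± 0.21 (adjusted p = 0.00518) and by 1.64 ± 0.21 (adjusted p = 0.000168), and the liver factor Cebpb rose in both, by 1.15 ± 0.21 (adjusted p = 0.0134) and 0.87 ± 0.21 (adjusted p = 0.00923). The chronic call of Cebpb ended under median scaling (0.711, adjusted p = 0.0975) and without the 2 dimmest arrays (0.889, adjusted p = 0.0666). Smad3, through which TGF-beta induces Cdkn1a, fell by 0.93 ± 0.18 on the log2 scale after chronic T3 (adjusted p = 0.00252). The acute call of Cebpb ended without array 1 of baseline A or array 1 or 3 of acute T3 (adjusted p 0.0584 to 0.0651) and with array weights (0.0731). Of thyroid hormone receptors and their cofactors 4 of 10 were measured, Ncoa3, Med1, Rxra and Rxrb, and 0 passed in either comparison. The thyroid hormone receptor genes themselves, Thra and Thrb, did not pass the detection filter and were not measured.

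Of 20 clock genes listed, 13 were measured. After acute T3, 4 of 13 rose and 2 fell, and in baseline B against baseline A, 7 rose and 2 fell, while after chronic T3 0 rose and 2 fell. In that order, the shares of all genes called higher and lower were 1.47% and 0.646%, 2.73% and 5.98%, and 12.4% and 10.5%. The acute and the baseline comparison share the baseline A arrays. Arntl, the gene of the clock activator BMAL1, was lower by a log2 difference of -2.25 ± 0.30 after acute T3 (adjusted p = 0.00203) and by -3.06 ± 0.30 in baseline B (adjusted p = 0.00026, at least 4.001-fold). Its partner Clock was lower by -0.55 ± 0.12 (adjusted p = 0.0284) and -0.99 ± 0.12 (adjusted p = 0.000563). Dbp, an output gene of the clock, was higher by 3.61 ± 0.60 (adjusted p = 0.00946) and 4.16 ± 0.60 (adjusted p = 0.00278). The nuclear receptor Nr1d2 (REV-ERB beta), a repressor within the clock, was higher by 0.80 ± 0.18 (adjusted p = 0.0364) and 0.82 ± 0.18 (adjusted p = 0.0185). After chronic T3 none of these 4 genes passed, at 0.39, 0.14, -0.40 and -0.24, and the 2 clock genes that fell there were others of the 13. The chronic and acute effects differed by 2.64 ± 0.42 for Arntl (adjusted p = 0.00354) and by -4.00 ± 0.85 for Dbp (adjusted p = 0.0149).

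Cdkn1a thus shared with Arntl a high level in baseline A and a low one in acute T3 and baseline B, and differed from it after chronic T3, where Arntl averaged 5.78 and was detected on 2 of 3 arrays. The part of time of day in the acute and baseline values of Cdkn1a was not tested. The acute call of Clock ended without array 1 or 2 of baseline A or any 1 array of acute T3 (adjusted p 0.0584 to 0.111) and under median scaling (0.618). That of Nr1d2 ended without array 1 or 2 of baseline A, any 1 array of acute T3, array 2 or 3 of T3 withdrawal or array 1 of baseline B (adjusted p 0.0504 to 0.146), and its baseline call without array 1 of baseline A or array 3 of baseline B (0.0633 to 0.0746) and under median scaling (0.124).

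Stress and metabolic genes that can accompany Cdkn1a were read from 4 further lists. Of 10 measured genes of the integrated stress response, 1 fell after acute T3 (0.646% of all genes) and 4 rose after chronic T3 (12.4% of all genes). The stress-induced chromatin protein Nupr1 followed the signs of Cdkn1a, with -1.54 ± 0.32 after acute T3 (adjusted p = 0.0284), 1.27 ± 0.32 after chronic T3 (adjusted p = 0.0132) and -1.51 ± 0.32 between the baselines (adjusted p = 0.0161). The factor Ddit3 (CHOP) rose by 0.93 ± 0.19 after chronic T3 (adjusted p = 0.0043), and the asparagine synthetase gene Asns rose by 1.92 ± 0.53 (adjusted p = 0.0202). The chronic effect exceeded the acute effect by 2.81 ± 0.45 for Nupr1 (adjusted p = 0.00363). The acute call of Nupr1 ended without any 1 array of baseline A or acute T3 (adjusted p 0.0625 to 0.105) and under median scaling (0.108), its chronic call without array 3 of baseline B (0.0516) and its baseline call without array 3 of baseline A or array 3 of baseline B (0.0561 to 0.0662). The chronic call of Asns ended without array 1 of chronic T3 or array 1 of baseline B (adjusted p 0.0608 to 0.0788). Without the 2 dimmest arrays the chronic calls of Asns (0.0864) and Ddit3 (0.128) ended.

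Of 12 genes induced by glucocorticoids in liver, 0 passed after acute T3, beside 1.47% of all genes called higher and 0.646% lower. After chronic T3 1 rose and 0 fell, beside 12.4% and 10.5%. The median was -0.27 after acute T3 (2 of 12 above 0), 0.665 after chronic T3 (9 of 12) and -0.021 between the baselines (4 of 12). For the chronic minus the acute effect it was 1.246 (11 of 12 above 0, 0 called). The gene that rose was the acute-phase gene Lcn2 (3.18 ± 0.89, adjusted p = 0.0225). Its call ended without array 1 of chronic T3 or array 1 or 2 of baseline B (adjusted p 0.0523 to 0.0842). Of 13 measured fasting genes, 0 passed after acute T3, and 2 rose and 2 fell after chronic T3, beside 12.4% and 10.5% of all genes. The hormone gene Fgf21 rose by 3.06 ± 0.68 (adjusted p = 0.00647), and the thioesterase gene Acot1, which shares near-identical copies in the genome and is uncertain for that reason, fell by 2.27 ± 0.33 on the log2 scale (adjusted p = 0.000483). For Fgf21 the chronic effect exceeded the acute effect by 4.60 ± 0.96 (adjusted p = 0.0138), a call that ended with array weights (4.046, adjusted p = 0.105). Of 9 measured senescence and growth arrest genes, 1 fell after acute T3, beside 0.646% of all genes (the antiproliferative gene Btg1, by 0.90 ± 0.20 on the log2 scale, adjusted p = 0.0396). After chronic T3 1 fell, beside 10.5% of all genes (Tob1 of the same family, by 1.33 ± 0.29, adjusted p = 0.00573). The Btg1 call ended in 12 of the 15 fits that left out 1 array, all except those without array 1 or 3 of chronic T3 or array 2 of baseline B (adjusted p 0.0507 to 0.169), and under median scaling (0.418). Without the 2 dimmest arrays Tob1 differed by -0.672 (adjusted p = 0.185), so that its call ended. After withdrawal, against baseline B, 0 members of any of the 13 lists passed, in a comparison that called only 0.0111% of all genes (1 gene).

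Genes whose level followed that of Cdkn1a were ranked by Pearson's r to ILMN_2846775 over the 15 arrays, among 8756 genes with an established symbol. These r values are a description: the points share the arrays, their normalisation and the 5 groups. In all, 74 genes had an r above 0.8 and 56 an r below -0.8. The highest was Atf5, a stress-regulated transcription factor, at 0.943 (0.9 with ILMN_2634083). Its level was 13.2 in baseline A, 12.6 after acute T3, 12.1 in baseline B, 13.3 after chronic T3 and 12.1 after withdrawal. Next came Ndufa1 (0.893), a subunit of mitochondrial complex I, the histone gene H2ac10 (0.892), whose family holds near-identical copies that a probe may not separate, the glycolytic gene Pkm (0.885), the membrane repair gene Dysf (0.883), Tpra1 (0.883), Cd8b1 (0.876), named for a T cell co-receptor chain, and Mcm5 (0.872).

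The range of these genes was smaller than that of Cdkn1a. From baseline B to chronic T3 the mean of Ndufa1 went from 13.4 to 13.8, that of H2ac10 from 12.1 to 12.5 and that of Pkm from 7.95 to 9.19. Mcm5 came nearest in size, from 6.48 to 8.87. When the mean of each group was removed first, r to Cdkn1a fell to 0.459 for Atf5 and to -0.035 for Ndufa1 and stayed highest among the 8 for Tpra1, at 0.71. The most opposite genes were Sirt5 (-0.917), a mitochondrial deacylase, the vesicle protein gene Syt1 (-0.904), the lipogenic regulator Srebf1 (-0.904), the protease gene Prss8 (-0.9) and Ccny (-0.898), a cyclin of the cell membrane. Srebf1 averaged 8.67 in baseline A and 8.44 after chronic T3 and between 9.19 and 9.97 in the other 3 groups. When arrays were scaled to a common median in place of quantile normalisation, Ndufa1 had an r of 0.354 and H2ac10 of 0.366, while Atf5 had 0.833.

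**Figure D4:**
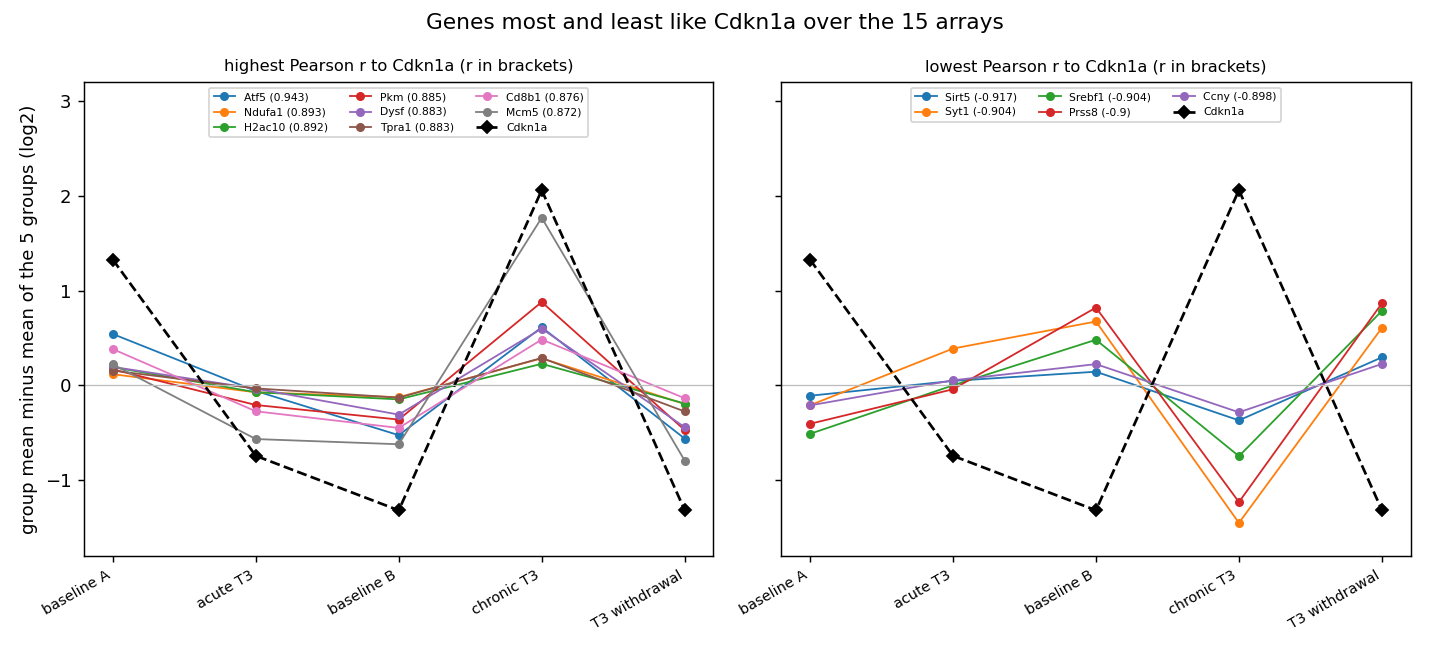
Group means of the 8 genes with the highest (left) and the 5 with the lowest (right) Pearson's r to Cdkn1a, each minus the mean of its 5 group means (log2), with Cdkn1a dashed in black; r is in brackets. The lines of the left panel peak in chronic T3 as Cdkn1a does, most widely Mcm5, and those of the right panel dip there.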

How the data were processed

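Total RNA of liver was labelled with biotin and read on Illumina bead arrays, per the labels' protocols. The deposited file holds an intensity per probe and array, linear and as scanned, together with its detection p-value, per the file headers. A second deposited table gives the intensity after quantile normalization by the authors, still linear, as the shared distribution of its columns shows. Partek 6.6 is named in the submitters' processing notes with no role. The scanner software and any earlier background handling are not stated in the sources used here.

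The neqc function (offset 16) of limma 3.58.1 in R 4.3.3 estimated the background from the detection p-values, then quantile-normalized the intensities and took log2. Mean intensity per array ran from 435 to 697, and 11049 to 14679 probes were detected at p under 0.01, and 3 arrays per group limit the precision. A probe was kept if detected on at least 3 of 15 arrays (15361 probes). A probe detected on the 3 arrays of 1 group alone was thus kept, which favours genes that are high in that group. The probe table names 1 gene for 34885 probes, several for 18 and none for 10378. A gene was read from its kept probe with the highest mean, which gave 8976 genes. One limma model estimated the 5 group means from all 15 arrays, with 10 residual degrees of freedom, 13.1 after moderation. Its 2-sided p-values were Benjamini-Hochberg adjusted over the 8976 genes, separately for each comparison. The fit was tested on simulated data.

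Cdkn1a and the gene lists were chosen with earlier results of these data known. Named from each list are up to 4 genes that passed with the smallest adjusted p in a comparison, with values in the others, and all measured inhibitors and p53 regulators; the likeness ranking names the 8 highest and 5 lowest r and leaves out clone and predicted-gene symbols. Replicate numbers of the labels were checked for pairing: the correlation of same-numbered arrays' deviations was between -0.281 and 0.25, and only between the baselines was every pair above 0.1 (0.126, 0.25 and 0.195). Alternatives were no background correction, normexp, an offset of 50, median scaling, the authors' table, other filters and probe rules, array weights, a trended robust fit, compared groups only, a replicate block, and leaving out each array. A detection p under 0.05 and leaving out the 2 dimmest arrays were added after seeing the data.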

Additional observations from a re-analysis of the deposited data

Results flagged for a closer look

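Effects differed between the 2 subsets, chronic T3 against baseline B and acute T3 against baseline A, for Cdkn1a and for 15 other genes named above. Over all 8976 genes tested, the difference of effects was called for 641. Most named genes were picked for passing a comparison in these data, which favours such a difference, so their number is no result about them. For Cdkn1a every acute T3 array was below every baseline A array and every chronic T3 array above every baseline B array, and the chronic effect exceeded the acute effect by 5.46 on the log2 scale. That difference was not tested, because the gene was chosen for it.

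For the others the difference of the effects passed limma's test at an adjusted p under 0.05, with a value (log2, chronic minus acute) of 2.64 for Cdkn3, 2.64 for Arntl, -4.00 for Dbp, 4.60 for Fgf21, 2.10 for Folr2, 3.18 for Mcm5, 2.30 for Mcm6 and 2.81 for Nupr1, and these 8 calls held without any 1 array. That of Fgf21 ended with array weights (4.046, adjusted p = 0.105), and the other 7 held in the alternatives that gave a value. It was 2.41 for Ccnd1, whose call ended without array 3 of baseline A, array 1 or 3 of acute T3, array 1 of chronic T3 or array 1 or 2 of baseline B (adjusted p 0.0507 to 0.0703) or with median scaling (0.0794). It was 0.70 for Clock, whose call ended without array 3 of acute T3 (adjusted p = 0.0622), with median scaling (0.506) and without the 2 dimmest arrays (0.0719). It was -1.04 for Nr1d2, whose call ended without array 1 of baseline A, array 2 of acute T3, array 1 of chronic T3 or array 3 of baseline B (adjusted p 0.0534 to 0.0669), with array weights (0.0729) and with the mean of probes (0.135).

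The difference was 2.81 for Asns, 0.63 for Fas, 1.01 for Ddit3 and -0.59 for Atm, and these 4 calls ended without 1 array in 10, 11, 12 and 12 of the 15 fits. They held only without array 1 of baseline A, array 2 of acute T3 or a withdrawal array for Asns, and without array 3 of baseline A, array 3 of chronic T3, array 1 of T3 withdrawal or array 2 of baseline B for Fas. They held without array 2 of baseline A, array 3 of chronic T3 or array 3 of baseline B for Ddit3 and without array 3 of baseline A, array 1 of T3 withdrawal or array 2 of baseline B for Atm. The adjusted p reached 0.0974, 0.0996, 0.0837 and 0.117 in these 4 genes. Median scaling, array weights and testing without the detection filter each ended all 4 calls, at an adjusted p of up to 0.574 (Fas). With 3 arrays in a group, no group was searched for single outlying arrays.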

How the results depend on the processing

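The direction of each Cdkn1a treatment and baseline difference was the same in all 29 alternatives, and its size followed the background correction. Other filters, each probe tested, a trended robust fit, only the compared groups and a replicate block leave these differences of group means unchanged. Their agreement was fixed in advance, and leaving out 1 array could hardly reverse groups that do not overlap. Without background correction the log2 differences were -1.145 (acute), 1.907 (chronic), -1.913 (withdrawal against chronic), -1.359 (between baselines) and 3.052 (chronic minus acute effect). The authors' table gave -1.155, 1.922, -1.927, -1.369 and 3.077, normexp -1.67, 2.753, -2.774, -2.084 and 4.423, and an offset of 50 gave -1.629, 2.639, -2.631, -1.976 and 4.268 (2 of these settings leave the background in the signal and the offset adds to it by construction; for normexp the cause was not tested). The mean of the 3 probes gave -1.703, 2.963, -2.968, -2.177 and 4.666. Without arrays 2 and 3 of chronic T3 the difference of effects was 5.742. With 1 array left out, the acute difference ran from -2.282 to -1.824, the chronic from 3.262 to 3.467, that between baselines from -2.854 to -2.4 and the difference of effects from 5.212 to 5.656. Withdrawal against baseline B ran from -0.166 to 0.183, below 0 in 9 of 29 alternatives and called in 0.

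Counts of called genes were 190 (acute), 2052 (chronic), 1 (withdrawal against baseline B), 1538 (withdrawal against chronic) and 782 (between baselines). The acute count was 297 without background correction, 296 in the authors' table, 123 with median scaling, 109 without the detection filter, 65 with array weights, 288 with a trended robust fit and 93 with only the compared groups. The chronic count was 888 with median scaling and 898 with only the compared groups. Withdrawal against baseline B gave 3 with array weights, 0 with only the compared groups and 2 without the 2 dimmest arrays, and withdrawal against chronic gave 802 with only the compared groups. The baseline count was 501 without the filter, 1639 probes with each probe tested, 79 with array weights and 185 with only the compared groups. With 1 array left out the counts ran from 48 (without array 3 of acute T3) to 244 for acute, from 1 to 4 (without array 2 of baseline B) for withdrawal against baseline B and from 130 (without array 1 of baseline A) to 1721 (without array 2 of baseline A) between baselines. Where an arm kept 1 array, it was assumed to vary like the other groups. Median scaling moved the median gene by 0.139 (acute), 0.373 (withdrawal), 0.351 (withdrawal against chronic) and -0.285 (between baselines), and the share of calls that were higher from 69.5% to 91.9% (acute), 51.5% to 86.4% (withdrawal against chronic) and 31.3% to 5.15% (baselines).

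Of 49 calls of named genes in the acute, chronic and baseline comparisons, 0 reversed. Median scaling ended 19, only the compared groups 22, array weights 15, leaving out the 2 dimmest arrays 11, the mean of probes 10, no filter 6 and each probe tested 2; the cause was not tested. Of the 15 called differences of effects, 0 reversed, and median scaling and array weights each ended 6, the mean of probes, no filter and leaving out the 2 dimmest arrays 4 each, each probe tested 3 and the replicate block 2. The replicate block left the baseline difference of Cdkn1a at -2.649, by construction, and the withdrawal test at an adjusted p of 0.999. It gave 659 calls between the baselines, where replicate numbers deviated together, and 154 in the acute comparison, where they did not, and ended the acute calls of Nr1d2 and Btg1 and the chronic call of E2f5, in pairs that share only a number. Signal near background limits the values of Cdkn1a in baseline B and after withdrawal.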
